A study of Mus musculus with 18 samples.

Results

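The chains of the CD4 and CD8 coreceptors were represented by 3 of the 36899 probe sets of the series, 1 each for Cd4, Cd8a and Cd8b1, 3 of the 15965 genes named in the platform annotation. They were chosen by their gene symbol there. All 3 lay on the U74A array type, and in the annotation used here no probe set of U74B or U74C carried one of these symbols. The samples came from mouse spleen and fall into 3 groups by their labels. IKDC stands for interferon-producing killer dendritic cells, PDC for the plasmacytoid kind and cDC for the conventional kind, which the design text names as the control. Each population had 2 biological samples prepared apart from each other, and each sample was hybridised to the 3 Affymetrix array types U74A, U74B and U74C, which gave 18 arrays. Mouse strain, age, sex, any treatment, the number of animals and the markers used for sorting are not stated in the labels or the design text. Since nothing says that the samples came from separate animals, the p-values measure only the spread between these samples.

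CD4 and CD8 are surface proteins of T cells that bind the constant parts of MHC molecules, CD4 those of class II and CD8 those of class I, and that bring the kinase Lck to the T cell receptor. CD4 is a single chain encoded by Cd4. CD8 is either a dimer of 2 alpha chains, encoded by Cd8a, or of an alpha chain with a beta chain, encoded by Cd8b1, and the beta chain reaches the cell surface only with the alpha chain. In mouse spleen the alpha chain without the beta chain marks the cross-presenting subset of conventional dendritic cells, CD4 marks part of the other subset, and plasmacytoid cells can carry both CD4 and the alpha chain.

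Of the 3 genes, only Cd8a had an entry in the RefSeq promoter table used here (GRCm38.p6). The 250 bases before its annotated transcript start, chr6:71373177-71373426 on the plus strand, are shown for that reason. Capitals mark matches to the E-box letters CANNTG, the motif bound by E proteins such as those of Tcf4, Tcf12 and Tcf3.
Cd8a: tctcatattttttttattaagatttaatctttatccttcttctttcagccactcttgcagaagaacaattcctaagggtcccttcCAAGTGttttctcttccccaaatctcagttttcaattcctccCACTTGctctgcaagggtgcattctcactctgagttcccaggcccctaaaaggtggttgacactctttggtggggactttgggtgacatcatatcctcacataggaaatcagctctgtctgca
The 2 E-boxes began at positions -165 and -123 relative to the transcript start. An E-box was present in 66.2% of 32841 promoter windows of the same length, so a match there is common. The letters TGTGGT of Runx factors and GGAAGT of Ets factors, searched on both strands, were not in this window and occurred in 14% and 19.7% of all windows.

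Signals are linear scaled intensities, as the authors deposited them, and a signal of 60 was used as the minimum for a measured level. The 12 unspiked bacterial control probe sets of U74A gave a median of 8.3 and a highest value of 45.2 over its 6 arrays. The median signal of the 18 arrays lay between 51.7 and 87.3, and their number limits the precision. On U74A, correlations over the tested probe sets were 0.886 to 0.953 within a population and 0.73 to 0.814 between populations. The ratio of the 3' to the 5' control probe set of Gapdh, which rises with RNA breakdown and with amplification, was 3.34 and 3.59 in IKDC, 6 and 3.19 in PDC, and 4.74 and 4.13 in cDC. The marker lists were written with earlier results of these data known, so their sums are no independent test of the labels. The summed signal of 10 NK cell markers was 52562 and 57753 in IKDC against 5588 and 4119 in PDC and 3318 and 4311 in cDC. That of 12 plasmacytoid markers was 49093 and 55048 in PDC, against 7704 and 9022 in IKDC and 8686 and 9383 in cDC. Single genes carried much of both sums: Nkg7 gave 30720 and 34971 in IKDC. Irf7 gave 18788 and 27391 in PDC, and 5749 and 7099 in IKDC.

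Cd8a was near the bottom of the scale in IKDC and well above the minimum in both other populations. The IKDC samples gave signals of 20.2 and 21.6, the PDC samples 409.6 and 544.4, and the cDC samples 335.3 and 754.3. Both IKDC signals lay inside the range of the unspiked bacterial controls. Against the signal minimum, Cd8a was at least 8.38-fold lower in IKDC than in cDC, with a log2 difference of -3.82 ± 0.38 (estimate ± SE, limma adjusted p = 0.000144). It was at least 7.87-fold lower in IKDC than in PDC, with a log2 difference of -3.73 ± 0.38 (limma adjusted p = 0.000176). All fold bounds here use the geometric mean of the brighter group over 60, and log2 differences are on the scale of log2(signal + 16), which understates changes of low signals. Where a population lay under the minimum, the fitted log2 difference depends on the pseudocount, and the bound is the size to read. Between PDC and cDC the Cd8a signals overlapped, with 477 ± 95.3 in PDC and 545 ± 296 in cDC (SD, n = 2 each). That log2 difference was -0.09 ± 0.38 with a 95% interval of -0.92 to 0.74 (limma adjusted p = 0.955). The interval spans changes in both directions, and the sign turned positive when PDC replicate 1 or cDC replicate 2 was left out.

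The probe set of Cd8b1, the beta chain, followed another order. The IKDC samples gave signals of 84 and 80, the PDC samples 2245 and 2686, and the cDC samples 26.1 and 6.1. The PDC samples stood far above all others, the IKDC samples a little above the minimum of 60, and both cDC samples below it. Cd8b1 was at least 40.9-fold higher in PDC than in cDC, with a fitted log2 difference of 6.34 ± 0.35 (limma adjusted p = 2.76e-06) that ran from 4.99 with a pseudocount of 64 to 7.47 with a pseudocount of 1. IKDC were lower than PDC by a log2 difference of -4.66 ± 0.35 (limma adjusted p = 2.11e-05), with signals of 82 ± 2.83 in IKDC and 2465 ± 312 in PDC (SD, n = 2 each). IKDC also exceeded cDC, with a log2 difference of 1.68 ± 0.35 (limma adjusted p = 0.0157), but the bound was only 1.37-fold. That call ended when either IKDC sample was left out (limma adjusted p = 0.111 and 0.0967), when cDC replicate 2 was left out (0.119) and with a pseudocount of 64 (0.0625). The suffix _s_at of this probe set marks, in Affymetrix naming, probes shared by more than 1 transcript, and the annotation table used here lists a target sequence for the probe sets of Cd4 and Cd8a but none for it. Whether all of its signal comes from Cd8b1 transcripts was not tested.

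Cd4 was above the minimum in all 6 samples and differed less. The IKDC samples gave signals of 177.5 and 108.3, the PDC samples 398.7 and 769.8, and the cDC samples 268.7 and 266. The signals were highest in PDC and lowest in IKDC, and only IKDC against PDC passed the test. There the log2 difference was -1.88 ± 0.36 (limma adjusted p = 0.0108), with 143 ± 48.9 in IKDC and 584 ± 262 in PDC (SD, n = 2 each). That call ended without IKDC replicate 2 (limma adjusted p = 0.139), without PDC replicate 2 (0.0635) and after median centring of the arrays (0.0546). IKDC and cDC differed by -0.87 ± 0.36 (95% interval -1.66 to -0.08, limma adjusted p = 0.214). PDC and cDC differed by 1.01 ± 0.36 (95% interval 0.22 to 1.80, limma adjusted p = 0.193). Neighbours in the order PDC, cDC, IKDC thus did not pass after adjustment over all probe sets, though both unadjusted intervals excluded 0.

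**Figure D1:**
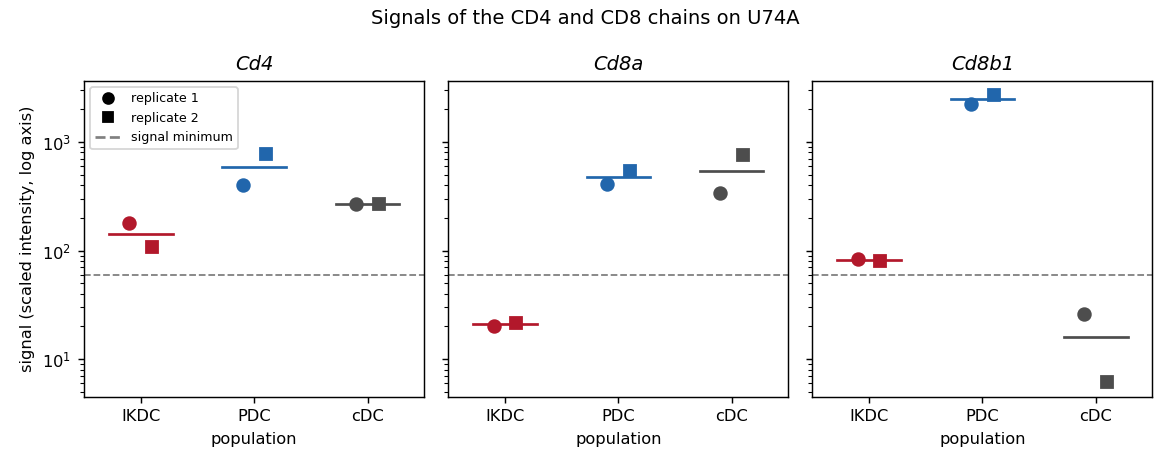
Signals of Cd4, Cd8a and Cd8b1 on a log axis in the 2 samples of IKDC, PDC and cDC, with the mean of each population as a line and the signal minimum of 60 as a dashed line. Cd8a lies below the minimum only in IKDC, Cd8b1 only in cDC, and Cd4 in no sample.

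Counted over the 3 chains, IKDC against cDC gave 1 higher (Cd8b1) and 1 lower (Cd8a), in a comparison that called 5.6% of all tested probe sets, 2.68% higher and 2.92% lower. PDC against cDC gave 1 higher (Cd8b1) and 0 lower, where 3.65% of all were called, 1.73% higher and 1.92% lower. IKDC against PDC gave 3 lower, where 4.45% of all were called, 2.06% higher and 2.39% lower. The 3 comparisons share samples and are not independent of each other. All 3 probe sets reached the minimum on at least 2 arrays, Cd4 on 6 and the other 2 on 4 each. Cd8a did so only in PDC and cDC, the populations in which it was high. Cd8b1 did so only in PDC, where it was high, and in IKDC. Each population thus had its own combination of probe set signals. In IKDC these were Cd4 with a low Cd8b1 and no measured Cd8a, in PDC all 3, and in cDC Cd4 with Cd8a but no measured Cd8b1. For Cd8b1 this describes the probe set, since whether all of its signal comes from Cd8b1 transcripts was not tested. Its IKDC signals of 84 and 80 lay only a little above the chosen minimum. In bulk samples, fewer cells with a transcript and less of it per cell cannot be told apart.

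**Figure D2:**
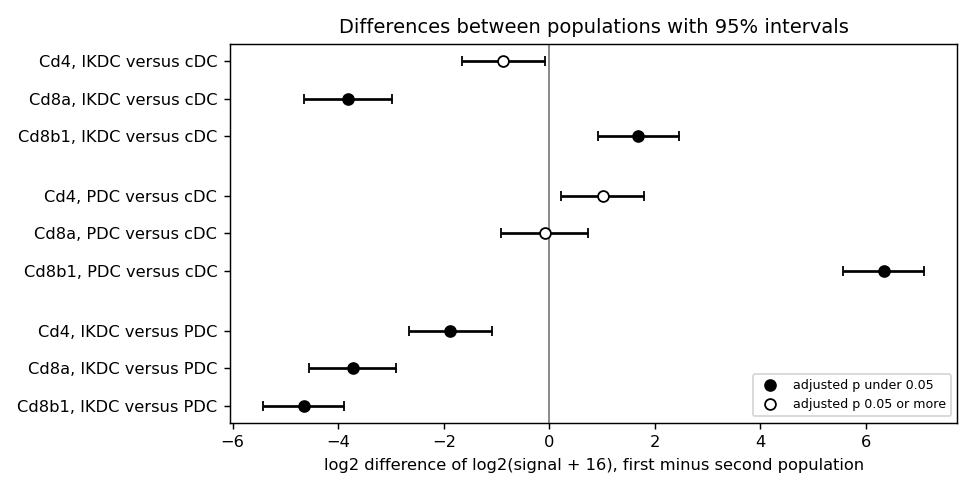
Log2 differences of the 3 chains in the 3 comparisons, first population minus second, with 95% intervals from limma and filled points where the adjusted p was under 0.05. All 3 chains were lower in IKDC than in PDC, while Cd8a and Cd8b1 lie on opposite sides of 0 in IKDC against cDC.

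The chains also differed in how well the 2 samples of a population matched. In cDC, Cd8a was 1.13 log2 units higher in replicate 2 than in replicate 1, and only 5.8% of the 7081 tested probe sets of U74A differed by more. Cd4 differed by -0.01 between the same 2 samples. Of 10 tested markers of the CD8+ cDC subset, 5 were higher in cDC replicate 2, with a median difference of 0.03 (0 over all genes). Among them Naaa, a lysosomal amidase gene, was 1.40 higher and Cd24a 0.88 higher. In the other direction, Rab7b differed by -0.88, the chemokine receptor gene Xcr1 by -0.30 and Wdfy4 by -0.27. The transcription factor gene Batf3 differed by -0.03. Of 13 tested markers of the CD4+ or CD11b+ subset, 7 were higher in cDC replicate 2, with a median difference of 0.13. Members of both lists differed in both directions between the cDC samples. In PDC, Cd4 was 0.92 log2 units higher in replicate 2, a size exceeded by 18.5% of probe sets, while Cd8a differed by 0.40 and Cd8b1 by 0.26. In IKDC, Cd4 differed by -0.64, which 13.4% of probe sets exceeded, and Cd8a and Cd8b1 by 0.05 and -0.06.

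The nearest profiles to each chain on U74A were sought by the root mean square difference between log2 profiles over the 6 samples, each centred on its own mean, among 4445 genes. The 5 genes nearest to Cd8a were Adam19, Pkib, Gsn, Evi2a and Ctsh, at distances of 0.39 to 0.45 log2 units. Each of them was lower in IKDC than in both other populations, as for Ctsh, encoding the protease cathepsin H, with 154 and 103.3 in IKDC against 2582 and 3404 in PDC and 1172 and 2134 in cDC. Nearest to Cd4 were Pls3, BC147527, Fdps, Sqle and Gpr137b-ps, at 0.15 to 0.19. Fdps and Sqle encode enzymes of sterol synthesis, and Fdps had 175.1 and 109.3 in IKDC, 529.6 and 713.5 in PDC, and 233.8 and 279 in cDC.

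Nearest to Cd8b1 were Klk1b5, D13Ertd608e, Klk1, Ctsl and Klk1b22, at 0.22 to 0.48, and 3 of these 5 are tissue kallikrein genes, which encode secreted serine proteases. The probe set of Klk1b5 had 81.5 and 63 in IKDC, 2071 and 2576 in PDC, and 14.2 and 9.7 in cDC. Those values track the Cd8b1 values sample by sample. The kallikrein probe sets end in _f_at, which marks probes shared within a gene family. Klk1 itself had 170.1 and 117.8 in IKDC against 5664 and 7150 in PDC. No likeness of function or control follows from a shared profile over 6 samples. Whether the Cd8b1 probe set, which ends in _s_at, takes up signal from kallikrein transcripts was not tested. Among the chains themselves, Cd8a and Cd4 were 1.29 apart, with 3.53% of genes closer to Cd8a, whereas Cd8b1 was 2.90 from Cd8a and 2.21 from Cd4, farther than 98.5% and 99.2% of genes.

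**Figure D3:**
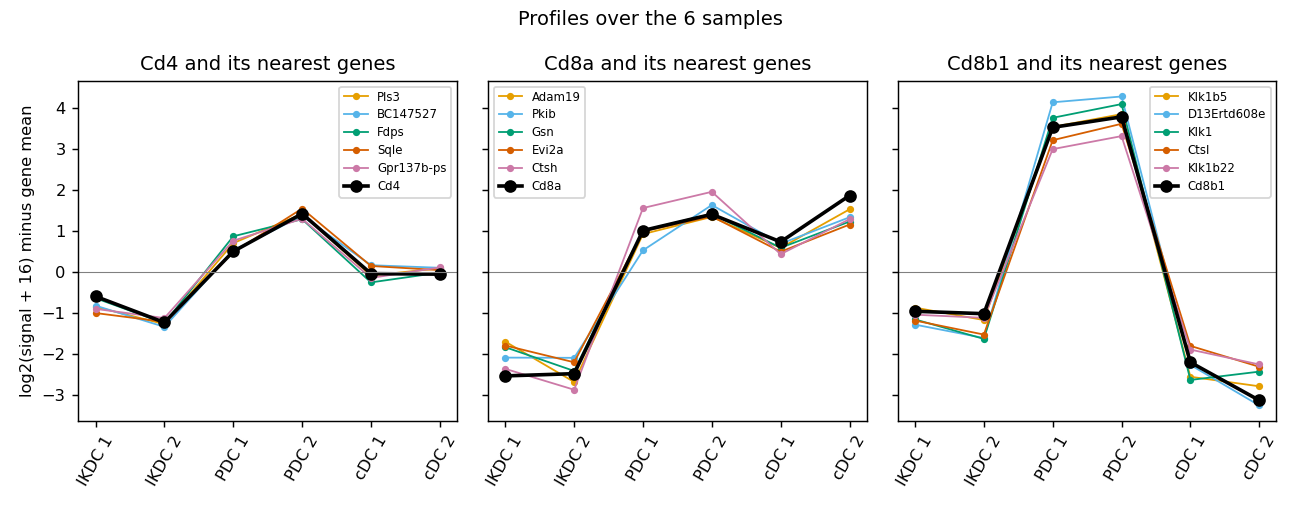
Profiles over the 6 samples, as log2(signal + 16) minus each gene's mean, for each chain (black) and its 5 nearest genes on U74A (colours). The Cd4 set steps up from IKDC through cDC to PDC, the Cd8a set is low only in IKDC, and the Cd8b1 set is high only in PDC.

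In the gene lists that follow, each gene was counted by its tested probe set with the highest mean signal, and further probe sets of the same gene are given where they differ. Of 8 tested genes for ligands of the coreceptors, 4 were lower in IKDC than in cDC and 0 higher, with a median log2 difference of -1.56, where 4.07% of all 12193 genes were lower, 3.5% higher and the median was 0.01. The 4 were the MHC class II chain genes H2-Ab1, H2-Eb1, H2-Ea and H2-Aa, whose products bind CD4. H2-Eb1 had 1018 ± 237 in IKDC and 14120 ± 1339 in cDC (SD, n = 2 each), a log2 difference of -3.79 ± 0.29 (limma adjusted p = 3.08e-05). The same 4 genes were lower in IKDC than in PDC, and between PDC and cDC 1 of 8, H2-Eb1, was lower in PDC (-1.42 ± 0.29, limma adjusted p = 0.0184). The genes of the class I molecules that bind CD8 did not pass in any comparison. H2-K1 had 8281 ± 1150 in IKDC, 7494 ± 635 in PDC and 7646 ± 196 in cDC, B2m, the shared light chain, had 6275 ± 26.7, 4891 ± 504 and 4081 ± 940 in the same order, and H2-D1 had 8017 ± 945, 7268 ± 738 and 5670 ± 2661. Il16, whose product binds CD4, had 307 ± 27 in IKDC, 326 ± 109 in PDC and 306 ± 33 in cDC. The class I probe sets end in _f_at for H2-K1 and H2-D1 and can take up signal from other class I genes, and H2-Aa had 2 further probe sets on U74C, neither of which passed. A further probe set of H2-Eb1 on U74B passed in IKDC against cDC (-3.97, limma adjusted p = 0.0168) but not in IKDC against PDC (-0.84, adjusted p = 0.712) or in PDC against cDC (-3.12, adjusted p = 0.0669).

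Lag3, the structural relative of Cd4 whose product also binds MHC class II and whose gene is the next protein-coding gene to Cd4 on chromosome 6, was measured in PDC alone. Its signal was 10.2 and 47.5 in IKDC, 220.1 and 291.7 in PDC, and 16.4 and 45.9 in cDC. All IKDC and cDC signals were under the minimum, so Lag3 entered the test through PDC alone. It was at least 4.22-fold higher in PDC than in cDC (limma adjusted p = 0.0155) and at least 4.22-fold lower in IKDC than in PDC (limma adjusted p = 0.00913). Gpr162, the next gene to Cd4 on the other side, had 260.8 and 315.1 in IKDC, 244.8 and 359.8 in PDC, and 417.7 and 154.9 in cDC, and did not pass. Cd8a and Cd8b1 are themselves next to each other on chromosome 6, and the genes beyond them, Rmnd5a next to Cd8a and Gm1070 next to Cd8b1, did not pass in any comparison (limma adjusted p from 0.242 to 0.988).

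Among kinases and signalling partners of the coreceptors, 4 of 12 tested genes were higher in IKDC than in cDC and 0 lower (median 1.30). Of all genes, 3.5% were higher and 4.07% lower in that comparison. They were Skap1, Zap70, Fyn and Ptpn22, and Lck is not analysed here. Zap70, the kinase that Lck activates at the T cell receptor and that NK cells also use, had 1179 ± 188 in IKDC and 115 ± 78.1 in cDC, a log2 difference of 3.32 ± 0.40 (limma adjusted p = 0.000467). Fyn, a kinase of the Lck family, had 1794 ± 223 in IKDC, 1947 ± 864 in PDC and 222 ± 26.1 in cDC, and was higher in PDC than in cDC by 2.97 ± 0.33 (limma adjusted p = 0.000415). The other 2 of the 3 genes called between PDC and cDC were lower in PDC: the adaptor gene Lcp2, with 82.1 ± 25.7 in PDC and 660 ± 7.35 in cDC, and Unc119, which binds Lck and Fyn (median of the 12 genes -0.12, against 0 over all genes, of which 2.25% were higher and 2.75% lower). In IKDC against PDC, 5 of 12 were higher and 0 lower (median 1.55, against 0.01 over all genes, of which 2.71% were higher and 3.17% lower), namely Ptpn22, Lcp2, Skap1, Zap70 and Ptprc, which encodes the phosphatase CD45. Further probe sets of Fyn, Skap1 (-0.30 in IKDC against cDC and 0.25 in IKDC against PDC) and Ptprc (1.84 in IKDC against PDC, limma adjusted p = 0.084) did not pass in any comparison, nor did 1 of 2 further probe sets of Zap70, while the other passed as counted.

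Of 16 tested genes that regulate Cd4 or Cd8 transcription in T cells, 5 were higher in IKDC than in cDC and 0 lower (median 0.96), where 3.5% of all genes were higher and 4.07% lower. They were Myb, Tcf12, Satb1, Ets1 and Ikzf1, and Satb1, a chromatin organiser, had 5137 ± 224 in IKDC, 1195 ± 18.4 in PDC and 1258 ± 152 in cDC. In PDC against cDC, Tcf12 and Myb were higher and Runx1 lower (median 0.03), where 2.25% of all genes were higher and 2.75% lower. Runx1 had 38.8 ± 5.52 in PDC, under the minimum, and 228 ± 68.9 in cDC, at least 3.71-fold lower in PDC (limma adjusted p = 0.0161). In IKDC against PDC, 2 were higher, Satb1 and Runx1, and 0 lower (median 0.74), where 2.71% of all genes were higher and 3.17% lower. These counts depend on the probe set, since 11 of the 16 genes had further ones tested. In IKDC against cDC, Ets1, Ikzf1, Satb1 and Tcf12 each had a further probe set that did not pass, and for Ikzf1 none of 3 did, with differences of -0.83 to 0.87. The further probe set of Tcf12 did not pass in PDC against cDC either (-0.78, limma adjusted p = 0.636). For Satb1 in IKDC against PDC, 2 further probe sets did not pass (1.01 and 2.14, limma adjusted p = 0.442 and 0.0699). Another of Satb1 passed there (2.51, limma adjusted p = 0.000403). Tox (3.27, limma adjusted p = 0.0054) and Gata3 (1.84, adjusted p = 0.0433), not among the 5, each had a further probe set that passed there. In IKDC against PDC, further probe sets passed for Tox (2.88, limma adjusted p = 0.0121), Gata3 (2.24 and 2.5, adjusted p = 0.0185 and 0.0312) and Ets1 (2.07, adjusted p = 0.00973), and in PDC against cDC for Ets1 (1.78, adjusted p = 0.0271). Runx3, which silences Cd4 in CD8 T cells, had 198 ± 12 in IKDC, 82.4 ± 8.91 in PDC and 86.8 ± 17.5 in cDC and did not pass in any comparison, nor did Zbtb7b, the CD4 lineage factor, with 74.4 ± 10.3, 100 ± 20.4 and 89.8 ± 27.4 in the same order. Bcl11b, a T cell factor, had 96.3 ± 10.3, 125 ± 21.1 and 117 ± 6.65 and did not pass either.

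**Figure D4:**
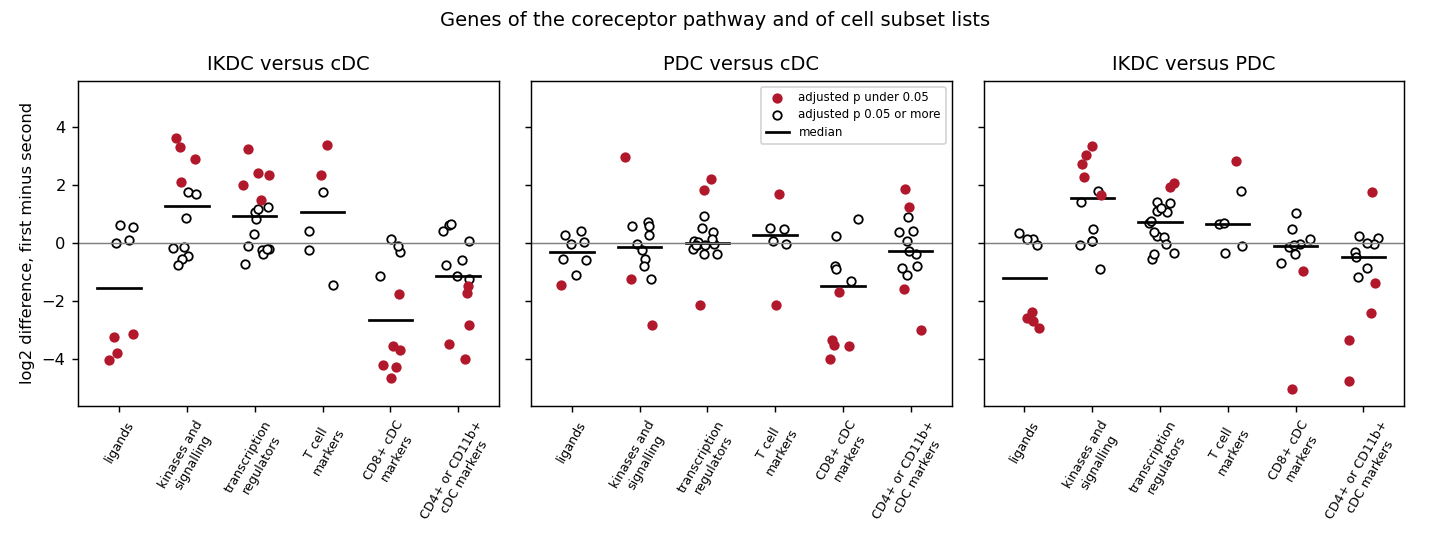
Log2 differences of the tested genes of 6 lists in the 3 comparisons, 1 point per gene for its brightest tested probe set, filled where the adjusted p was under 0.05, with the list median as a line. The 4 filled ligand points in IKDC against cDC and in IKDC against PDC are the MHC class II genes, and the signalling list holds filled points above 0 in the same 2 comparisons.

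T cell markers differed in which population they were highest in. Of 17 listed T cell markers 10 were measured, and their summed signal was 1487 and 1152 in IKDC, 892 and 667 in PDC, and 869 and 740 in cDC. Cd3g, a chain of the T cell receptor complex, had 466.5 and 172.9 in IKDC, 66.2 and 5.2 in PDC, and 22.5 and 5.8 in cDC. Cd3e had 56 and 8.8 in IKDC, 135 and 10.6 in PDC, and 32.2 and 17.4 in cDC, and no marker was at 0. Icos, a costimulatory receptor gene, had 73 and 200.2 in IKDC, 78.9 and 61.7 in PDC, and 301.4 and 434.2 in cDC. Of 6 tested T cell markers, 2 were higher in IKDC than in cDC (Cd3g and Cd28; median 1.1), 1 was higher and 1 lower in PDC than in cDC (Cd28 and Icos; median 0.29), and 1 was higher in IKDC than in PDC (Cd3g; median 0.68). Cd3d, not called, was 0.41 in IKDC against cDC by its counted probe set. Its further probe set on U74A gave 2.17 there (limma adjusted p = 0.069) and 1.49 in IKDC against PDC (limma adjusted p = 0.283), and passed in no comparison. Over all genes, 3.5% were higher and 4.07% lower in IKDC than in cDC. These shares were 2.25% and 2.75% in PDC against cDC, and 2.71% and 3.17% in IKDC against PDC.

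The subset markers of cDC give the setting of the Cd8a and Cd4 values. Of 10 tested CD8+ cDC markers 6 were lower in IKDC than in cDC and 5 lower in PDC than in cDC, with 0 higher in both (medians -2.65 and -1.49), and 2 were lower in IKDC than in PDC (median -0.09). Of all genes, 3.5% were higher and 4.07% lower in IKDC than in cDC, for comparison with this list and the next. The shares were 2.25% and 2.75% in PDC against cDC, and 2.71% and 3.17% in IKDC against PDC. In PDC, Batf3, required for the CD8+ subset, had 85.9 ± 37.5 against 1111 ± 17.3 in cDC, and Wdfy4, needed for cross-presentation, had 648 ± 65.8 against 6704 ± 883. PDC thus combined a Cd8a signal in the range of cDC with Batf3, Wdfy4, Naaa and Tlr3 signals far below it. Tlr3, and Clec4a2 of the CD4+ or CD11b+ list, reached the minimum in cDC alone and so entered the test only through cDC. Cadm1, encoding an adhesion protein of the CD8+ subset, was not among the markers lower in PDC than in cDC, with 202 ± 14.5 in IKDC, 7032 ± 791 in PDC and 3960 ± 539 in cDC. Of 13 tested CD4+ or CD11b+ markers, 5 were lower in IKDC than in cDC and 0 higher (median -1.12), 2 were higher and 2 lower in PDC than in cDC (median -0.28), and 1 was higher and 4 lower in IKDC than in PDC (median -0.46). Further probe sets of Cadm1 (1 of 2), Naaa and Wdfy4 in IKDC against cDC, of Naaa and Wdfy4 in PDC against cDC and of Wdfy4 in IKDC against PDC did not pass, and neither did that of Sirpa in the comparisons with PDC. Sirpa, a receptor gene of that subset, had 19.6 ± 5.02 in IKDC, 179 ± 79.6 in PDC and 551 ± 88.4 in cDC.

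Markers of other cells also differed between the populations. The shares of all genes called higher and lower were 3.5% and 4.07% in IKDC against cDC. They were 2.25% and 2.75% in PDC against cDC, and 2.71% and 3.17% in IKDC against PDC. All 10 tested NK markers were higher in IKDC than in cDC (median 3.97) and than in PDC (median 3.56), and 2, Ctsw and Klrd1, were higher in PDC than in cDC (median 0.24). Of 12 plasmacytoid markers 10 were higher in PDC than in cDC (median 2.86) and 9 were lower in IKDC than in PDC (median -3.18), while in IKDC against cDC Cox6a2 was higher and Upb1 lower (median 0.28). The summed signal of 10 monocyte and macrophage markers was 773 and 771 in IKDC, 2778 and 2994 in PDC, and 5969 and 7160 in cDC, with 9 of 10 lower in IKDC and 6 of 10 lower in PDC than in cDC (medians -2.78 and -2.35), and 2 lower in IKDC than in PDC (median -0.74). The sum of 8 B cell markers was 2105 and 827 in IKDC, 2011 and 1952 in PDC, and 964 and 801 in cDC. Of 6 tested ones 0 passed in IKDC against cDC (median 0.71), Blnk was higher and Cd22 lower in PDC than in cDC (median 0.10), and Blnk was lower in IKDC than in PDC (median 0.96). The sum of 5 erythroid markers was 14576 and 17198 in IKDC, 22743 and 9797 in PDC, and 1053 and 1994 in cDC, with 3 of 5 higher in IKDC and in PDC than in cDC (medians 3.37 and 1.97) and 1, Car2, higher in IKDC than in PDC (median -0.04). Most of that sum was Hba-a1, with 12060 and 13456 in IKDC, 21121 and 8068 in PDC, and 516 and 1348 in cDC. Called genes with a further probe set that did not pass were Il2rb, Spib, Irf7, C1qc, Csf1r, Fcgr1 and Vcam1, and C1qb, not called, had one that passed in both comparisons with cDC. Eomes reached the minimum in IKDC alone, and Adgre1 and C1qa in cDC alone, so they entered the test only through those populations. The part of any of these cell markers in the values of Cd4, Cd8a and Cd8b1 was not tested.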

How the data were processed

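Per the labels, total RNA was amplified in a pair of rounds, and the authors made signal intensities with GCOS and scaled each array to a target of 150. The submitters' processing notes name MAS5. The deposited linear intensities were used as log2(signal + 16). Control probe sets were left out, and the 23285 that reached 60 on 2 or more of the 6 arrays of their type were tested, each array type separately, with limma 3.58.1 in R 4.3.3 (lmFit, eBayes with trend, all 3 populations in 1 model). Benjamini-Hochberg adjustment ran over the 3 array types together, with a threshold of 0.05. The fit was tested on simulated data. The scaling makes each difference relative to the mean signal of the arrays. Symbols were updated to a GRCm38.p6 gene table. A listed gene was represented by its tested probe set with the highest mean signal. From each list the text names at most 4 called genes, taken by adjusted p, or where none was called the 2 of highest signal, and others were named after their values were seen. The members and lists were chosen with earlier results of these data known. The alternatives were 2 other pseudocounts, 2 filters, 2 scalings, the groups fitted, the trend, the adjustment, a replicate block and each sample left out.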

Additional observations from a re-analysis of the deposited data

How the results depend on the processing

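In each of 16 alternatives Cd8a stayed called in IKDC against cDC (log2 difference -4.53 to -2.75) and against PDC (-4.43 to -2.66), and Cd8b1 stayed called in PDC against cDC (4.99 to 7.47) and in IKDC against PDC (-4.89 to -4.11). Cd4 passed in 0 of 16 alternatives in IKDC against cDC (-1.19 to -0.55) and in PDC against cDC (0.55 to 1.47), and Cd8a in 0 of 16 in PDC against cDC, where its difference ran from -0.66 to 0.48 and was positive in 2. With a pseudocount of 64, Cd8b1 in IKDC against cDC was 0.88 and no longer called, leaving 1 chain called there. With 1 sample left out, that difference was 1.22 to 2.15 and the count of called chains was 1 to 2. Cd4 in IKDC against PDC was -1.75 and not called after median centring, which moved the median of all U74A differences there by 0.13, and was -2.34 to -1.42 with 1 sample left out. The cause of these changes was not tested. With 1 sample left out, the called probe sets numbered 593 to 1656 in IKDC against cDC (lowest without IKDC replicate 1, 1305 with all samples), 327 to 719 in PDC against cDC (lowest without cDC replicate 2, 849 with all) and 493 to 869 in IKDC against PDC (lowest without IKDC replicate 2, 1036 with all), in fits that take the lone sample to vary like the other groups. The replicate block (Cd8b1 in IKDC against cDC 1.68, limma adjusted p = 0.00373) changed no call of a chain, and called 1650, 1055 and 1223 probe sets in these 3 comparisons. The sample titles give replicate numbers but no pairing between populations. On U74A the deviations of same-numbered samples correlated at 0.0839 for IKDC and PDC, -0.0862 for IKDC and cDC, and 0.235 for PDC and cDC. These values do not settle whether same-numbered samples shared a preparation. The signal minimum limits the Cd8a value of IKDC and the Cd8b1 value of cDC.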
